A study of Homo sapiens with 8 samples.

Results

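The UGT2B androgen glucuronidation genes are 7 neighbouring genes on chromosome 4, UGT2B17, UGT2B15, UGT2B10, UGT2B7, UGT2B11, UGT2B28 and UGT2B4 in chromosome order, out of 20037 protein-coding genes considered. GATA2 binding around them was taken from the peaks whose summit, the highest point of a peak, lay within 50 kb of the RefSeq span of any of the 7 genes in hg38. Peaks that overlapped between peak lists were merged, which gave 13 UGT2B regions of the 36122 regions in the whole series. GATA2-bound DNA had been pulled down with an antibody and sequenced (ChIP-seq) from VCaP, a line of castrate-resistant human prostate cancer cells. The JQ1 group has 2 GATA2 precipitates from VCaP cells given 1 µM JQ1, an inhibitor of BET bromodomain proteins, for 24 h, and the untreated group has 2 from cells whose label is non-treated and whose protocol names DMSO as the control. All cells had been without steroids for 72 h in total, and the 4 input libraries, 2 per group, are not analysed here. The labels do not say whether replicates were separate cultures, so spread between them may be technical.

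UDP-glucuronosyltransferases join glucuronic acid to steroids, bile acids and drugs, which makes them water-soluble and inactive. In the prostate, UGT2B15 and UGT2B17 are the main enzymes that remove dihydrotestosterone and its metabolites in this way, and androgens are known to lower their expression in prostate cancer cells. The genes arose by duplication, so copies and pseudogenes of similar sequence stand beside each other along the cluster. UGT2B17 and UGT2B28 are deleted on some human chromosomes. GATA2 is a zinc-finger transcription factor that binds the letters GATA and works together with FOXA1 at prostate enhancers. Peaks show where GATA2 was found and not whether a gene was expressed.

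The peak lists held 4974 peaks in JQ1 replicate 1, 6902 in untreated replicate 1, 32404 in JQ1 replicate 2 and 27373 in untreated replicate 2. Peaks lay within 50 kb of the prostate luminal genes KLK3, KLK2, TMPRSS2 and FOXA1 in all 4 lists. Read numbers here were solved from the deposited fold enrichment and p-value of each peak. In untreated replicate 2 the values could be solved as whole reads only after a scaling by 0.686, and the reads and backgrounds given for that list are those divided by this factor. Backgrounds of a list were ordered from the lowest, and the value at the first 0.1% of peaks was taken. It was 1.13 reads in JQ1 replicate 1 and 1.25 in untreated replicate 1. In replicate 2 it was 1.56 with JQ1 and 1.96 untreated (1.34 without the division). Peaks given below with a background of 1.56 in JQ1 replicate 2 or 1.96 in untreated replicate 2 had a background at this low end. More than 1 UGT2B peak in each replicate 2 list had this value to the digits given, so it need not be rare. How many peaks of a whole list shared it was not counted. The total number of reads per library was not used here.

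Within 50 kb of the UGT2B genes, a single strong GATA2 region lay beside UGT2B7, and the other regions were found only in the longer lists of replicate 2. Beyond that distance, a region 62.2 kb from UGT2B15 was in 3 lists, untreated replicate 1 among them. JQ1 replicate 1 had 1 peak within 50 kb of a UGT2B gene, untreated replicate 1 had 1, JQ1 replicate 2 had 9 and untreated replicate 2 had 9. The mean was 5 ± 5.66 peaks with JQ1 and 5 ± 5.66 untreated (SD, n = 2 each). The difference of 0 gave p = 1 in a two-sided exact permutation test, whose smallest possible p with 2 lists against 2 is 0.333. The 9 peaks made up 9 regions in JQ1 replicate 2 but 8 in untreated replicate 2, where an interval with 2 summits counted as 2 peaks. Nor did the equal numbers stand for the same places, since 4 regions were in both replicate 2 lists, 5 only in JQ1 replicate 2 and 4 only in untreated replicate 2. Of all regions in the series, 58.6% were in both replicate 2 lists, 25.9% only in JQ1 replicate 2 and 13.3% only in untreated replicate 2. A single UGT2B region, or 7.69%, was in all 4 lists, against 8.96% of all regions. It was also the only UGT2B region in both JQ1 lists (13.1% of all regions) and the only one in both untreated lists (17.6% of all regions). No UGT2B region was found in the JQ1 lists alone, both of them, as 0.377% of all regions were, or in the untreated lists alone, as 0.62% were. A further 3, or 23.1%, were in both replicate 2 lists and no other, against 38% of all regions.

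**Figure D1:**
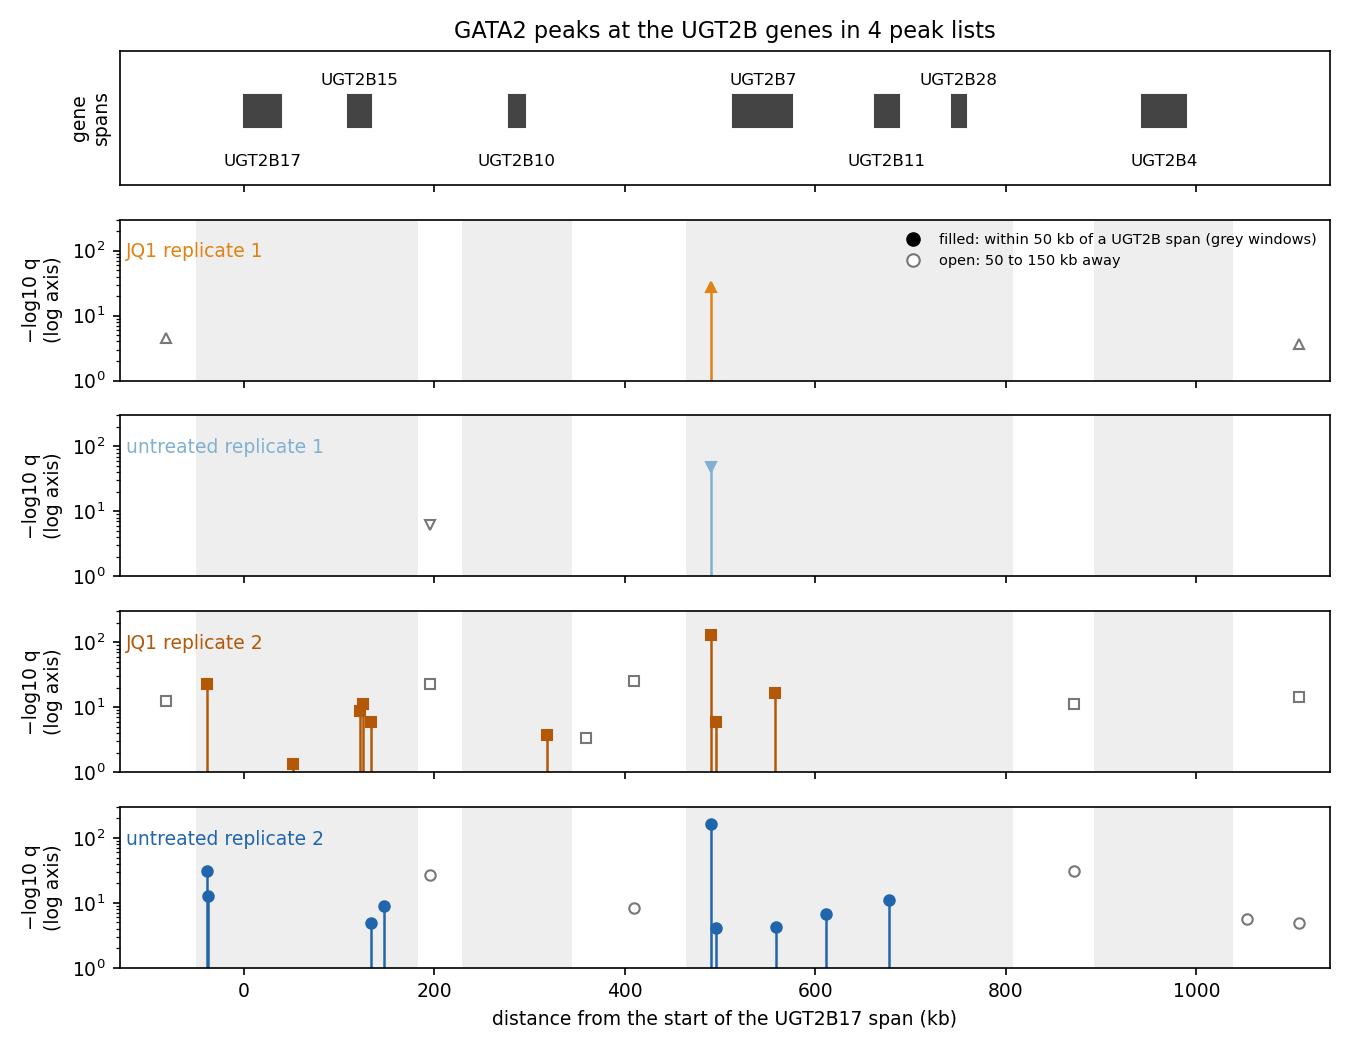
Map of the UGT2B cluster with the spans of the 7 genes (dark bars) and the GATA2 peaks of the 4 lists below. The horizontal axis is the distance from the start of the UGT2B17 span in kb and the vertical axes are the authors' −log10 q on a log scale. Filled symbols are peaks within 50 kb of a UGT2B span (grey windows) and open symbols the strongest peak per list of regions 50 to 150 kb away. A single filled symbol stands in each replicate 1 list, at the same place as the highest peak of both replicate 2 lists.

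Counted by gene, 1 of the 7 genes had a peak within 50 kb in JQ1 replicate 1, 1 in untreated replicate 1, 4 in JQ1 replicate 2 and 4 in untreated replicate 2. Over all protein-coding genes, 18.2% had a peak within 50 kb in JQ1 replicate 1, 25.7% in untreated replicate 1, 58.2% in JQ1 replicate 2 and 54.6% in untreated replicate 2. UGT2B17, UGT2B15 and UGT2B7 had a peak in both replicate 2 lists, UGT2B10 in JQ1 replicate 2 only and UGT2B11 in untreated replicate 2 only. UGT2B28 and UGT2B4 had no peak within 50 kb in any list, so 5 of the 7 genes had a peak in at least 1 list, against 62.6% of all protein-coding genes. A region present in 2 or more lists lay near 3 of the 7, against 49.7%. Each of the 13 regions belonged to a single UGT2B gene, so no region was counted for more than 1 of them. The grey windows around the 7 genes add up to 0.839 Mb. Peaks there were 1.19 per Mb in JQ1 replicate 1, 1.19 in untreated replicate 1, 10.7 in JQ1 replicate 2 and 10.7 in untreated replicate 2. Relative to the density of each whole list this was 0.74 in JQ1 replicate 1, 0.533 in untreated replicate 1, 1.02 in JQ1 replicate 2 and 1.21 in untreated replicate 2. The mean log2 ratio was 0.11 higher with JQ1 (two-sided exact permutation p = 1, n = 2 each), and it was −0.08 with a window of 100 kb. The sign also differed between the replicates, with 0.47 in replicate 1 alone and −0.24 in replicate 2 alone.

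UGT2B15 (NCBI gene 7366, chromosome 4, 68646597 to 68670652, minus strand) codes for an enzyme that conjugates dihydrotestosterone and androstanediol. A GATA2 region at 68670636 to 68670843 lay at its start site and was present in both replicate 2 lists. The peak of JQ1 replicate 2, from 68670678 to 68670843, ended short of the start on its upstream side, and that of untreated replicate 2, from 68670636 to 68670795, covered it. In JQ1 replicate 2 its summit was 107 bases upstream of the start, with 13 reads over a background of 1.56, a fold enrichment of 5.46 and a −log10 q of 6.01. In untreated replicate 2 the summit was 61 bases upstream, with 17 reads over a background of 1.96, a fold enrichment of 5.41 and a −log10 q of 4.85. Both were weak peaks of their lists, at the top 78.5% in JQ1 replicate 2 and the top 86.9% in untreated replicate 2 by q-value. JQ1 replicate 1 and untreated replicate 1 had no peak there. The backgrounds of 1.56 and 1.96 were at the low end of their lists, at values that other UGT2B peaks of the same lists had too.

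Peaks over a promoter were rare in these lists. Of 22199 RefSeq promoter windows of protein-coding genes, each running from 250 bases before to 50 after a start, JQ1 replicate 2 had a peak over 0.554%, untreated replicate 2 over 0.464% and both over 0.36%. JQ1 replicate 1 covered 0.0991% and untreated replicate 1 covered 0.216%. Among the UGT2B genes, 4 had a window in the RefSeq table (GRCh38.p14), namely UGT2B15, UGT2B10, UGT2B7 and UGT2B11. The UGT2B15 window was covered in both replicate 2 lists, over 166 bases in JQ1 replicate 2 and 160 in untreated replicate 2. The UGT2B11 window was touched by a peak of untreated replicate 2 over its outermost 20 bases, and the windows of UGT2B10 and UGT2B7 were not covered in any list.

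The following promoters are shown because they carry the window covered in both replicate 2 lists (UGT2B15), the touched one (UGT2B11) and the copy most like it without a peak (UGT2B10). Capitals mark every match to the letters GATA and to the forkhead letters TNTTTAC, the motif type bound by FOXA1, on either strand.
UGT2B15 (chr4:68670603-68670902, minus strand): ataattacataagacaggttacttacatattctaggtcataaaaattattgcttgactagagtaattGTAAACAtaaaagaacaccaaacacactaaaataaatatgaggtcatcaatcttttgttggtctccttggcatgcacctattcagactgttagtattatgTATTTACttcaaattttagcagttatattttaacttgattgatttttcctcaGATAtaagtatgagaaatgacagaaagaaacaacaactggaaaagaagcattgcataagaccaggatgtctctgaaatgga
UGT2B11 (chr4:69214699-69214998, minus strand): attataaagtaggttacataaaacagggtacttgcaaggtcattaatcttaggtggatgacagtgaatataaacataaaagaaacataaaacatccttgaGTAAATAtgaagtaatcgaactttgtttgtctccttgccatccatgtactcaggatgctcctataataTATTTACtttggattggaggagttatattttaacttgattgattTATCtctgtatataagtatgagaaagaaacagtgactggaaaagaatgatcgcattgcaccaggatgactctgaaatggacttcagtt
UGT2B10 (chr4:68815744-68816043, plus strand): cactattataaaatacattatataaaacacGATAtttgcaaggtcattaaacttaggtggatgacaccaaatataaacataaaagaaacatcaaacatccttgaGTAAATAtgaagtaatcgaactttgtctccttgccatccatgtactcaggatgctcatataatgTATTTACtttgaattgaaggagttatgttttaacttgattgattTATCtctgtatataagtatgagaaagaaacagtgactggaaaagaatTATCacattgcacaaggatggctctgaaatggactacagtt
The UGT2B15 promoter held 1 GATA match, with its first base 31 bases upstream of the start and under the peaks of both replicate 2 lists. That match was 77.5 bases from the summit of JQ1 replicate 2 and 31.5 from that of untreated replicate 2. The same promoter held 2 forkhead matches. The match 83 bases upstream was also under both peaks, 27 bases from the summit of JQ1 replicate 2 and 19 from that of untreated replicate 2. The match 183 bases upstream was under the peak of JQ1 replicate 2 alone. UGT2B11 held 1 GATA match and 2 forkhead matches, UGT2B10 held 3 and 2, and UGT2B7 held 4 and 0. None of these matches was under a peak. GATA was found in 43.6% of all promoter windows and TNTTTAC in 8.54%. A longer form, GATA with A or T before it and A or G after it, which contains the shorter one, was searched on both strands as well and found in 20% of windows. UGT2B15 held none of them, UGT2B11 and UGT2B7 1 each and UGT2B10 2.

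**Figure D2:**
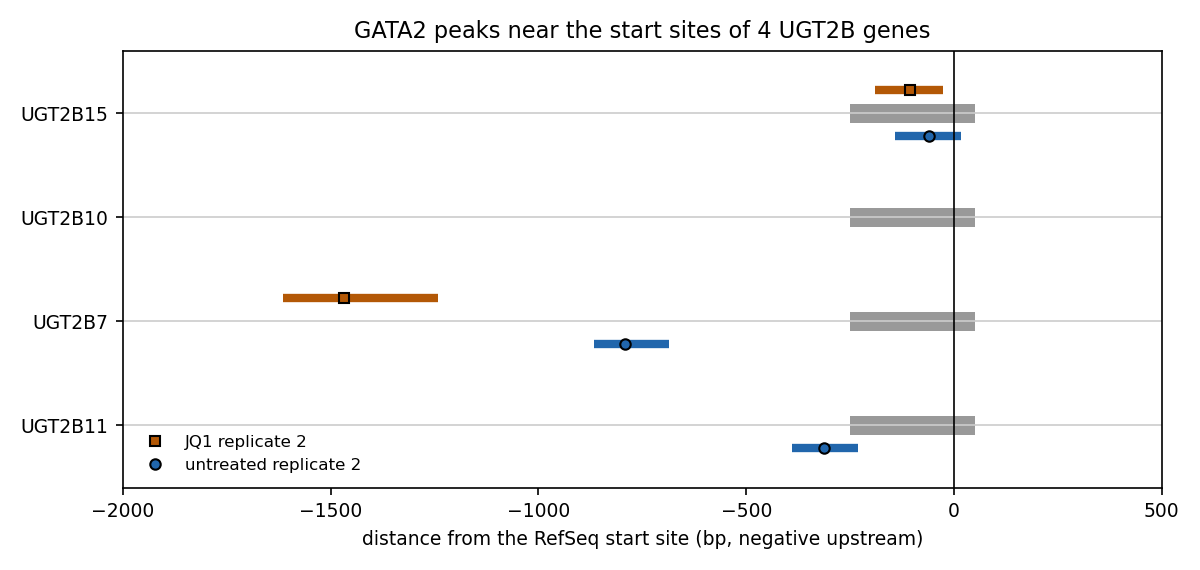
GATA2 peaks around the RefSeq start sites of 4 UGT2B genes, with the distance from the start in bases on the horizontal axis, negative upstream in the direction of each gene. Coloured bars are peak intervals with the summit as a symbol, for JQ1 replicate 2 above and untreated replicate 2 below each line, and grey bars are the promoter windows. Only at UGT2B15, among these 4 genes, do peaks of both lists lie over the promoter window.

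Further UGT2B15 regions were each found in a single list. JQ1 replicate 2 had 2 peaks inside the gene, 8.52 and 11.7 kb downstream of the start. The peak 8.52 kb downstream had 18 reads over a background of 1.56 and a −log10 q of 11.0, and the peak 11.7 kb downstream had 17 reads over 1.85 and a −log10 q of 8.79. Untreated replicate 2 had a peak 13.9 kb upstream, with 22 reads over 1.96 and a −log10 q of 8.83. The JQ1 and untreated lists thus shared only the start-site region at this gene.

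UGT2B17 (NCBI gene 7367, 68537173 to 68576322) codes for the enzyme with the broadest action on testosterone, dihydrotestosterone and androsterone, and a region 38.0 kb from its span was in both replicate 2 lists. It covered 68498969 to 68499616 and lay closer to another gene, the serine protease gene TMPRSS11E, 1.55 kb from its span. In JQ1 replicate 2 it had 46 reads over a background of 5.70, a fold enrichment of 7.01 and a −log10 q of 22.9. In untreated replicate 2 it had 2 summits in the same interval, the stronger with 51 reads over 2.44, a fold enrichment of 13.5 and a −log10 q of 30.7, the weaker with a fold enrichment of 8.22 and a −log10 q of 12.8. These peaks stood at the top 28.5% of JQ1 replicate 2 and the top 24.5% of untreated replicate 2. They were the UGT2B peaks farthest from a gene that still counted, and the nearest peaks that did not count lay 62.2 to 62.3 kb from UGT2B15, with a −log10 q of 13.2 in JQ1 replicate 2, 4.68 in untreated replicate 1 and 27.2 in untreated replicate 2. JQ1 replicate 2 also had a peak 13.1 kb from the UGT2B17 span, with 10 reads over 2.77 and a −log10 q of 1.33, at the very end of its list (top 99.9%). The limit for a peak was a q-value of about 0.05. No peak lay inside the UGT2B17 span in any list, and peak lists alone cannot tell an unbound gene from a deleted copy.

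UGT2B28 (NCBI gene 54490, 69280475 to 69295050) codes for another enzyme with activity on androgens. Its nearest peak was 113 kb away in JQ1 replicate 2 and 65.4 kb away in untreated replicate 2, and 253 kb away in both replicate 1 lists. UGT2B15 and UGT2B17 therefore had peaks in both replicate 2 lists, and UGT2B28 had none in the 50 kb window.

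UGT2B7 (NCBI gene 7364, 69051375 to 69112987, plus strand) codes for a liver and gut enzyme that conjugates estrogens, morphine and other drugs, and it had the strongest GATA2 region of the cluster. The region at 69027468 to 69027842 was the only UGT2B region in all 4 lists. It lay 23.7 kb outside the span and 68.8 kb upstream of the RefSeq start site at 69096474, since the span also takes in transcripts that begin farther upstream. It overlapped an end of the pseudogene UGT2B26P. The 4 summits lay between 69027650 and 69027677.

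At this region JQ1 replicate 1 had 49 reads over a local background of 4.73 reads and untreated replicate 1 had 62 over 3.70. JQ1 replicate 2 had 129 reads over 4.62 and untreated replicate 2 had 203 over 4.65. Reads over background came to 10.4 in JQ1 replicate 1 against 16.8 in untreated replicate 1, and to 27.9 in JQ1 replicate 2 against 43.6 in untreated replicate 2. The JQ1 value was below the untreated value in both replicates, while both replicate 2 values were above both replicate 1 values. The authors' fold enrichment had the same order, with 8.72 in JQ1 replicate 1 against 13.4 in untreated replicate 1, and 23.1 in JQ1 replicate 2 against 33.5 in untreated replicate 2. Of the 3236 regions in all 4 lists, 33.9% were lower with JQ1 in both replicates by reads over background and 37.7% by fold enrichment. Among the 4 UGT2B regions in both replicate 2 lists, 3 had the lower fold enrichment in JQ1 replicate 2, against 55.6% of all regions in both. No test was run on these values, which belong to separate callings of each list.

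Within its own lists the region was among the strongest. Its −log10 q was 27.8 in JQ1 replicate 1, 48.0 in untreated replicate 1, 130.5 in JQ1 replicate 2 and 166.6 in untreated replicate 2. It stood at the top 6.39% of JQ1 replicate 1, the top 3.77% of untreated replicate 1, the top 1.19% of JQ1 replicate 2 and the top 0.544% of untreated replicate 2. The local background there was above the median of each list, which was 2.39 reads in JQ1 replicate 1, 2.71 in untreated replicate 1, 2.77 in JQ1 replicate 2 and 3.10 in untreated replicate 2.

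**Figure D3:**
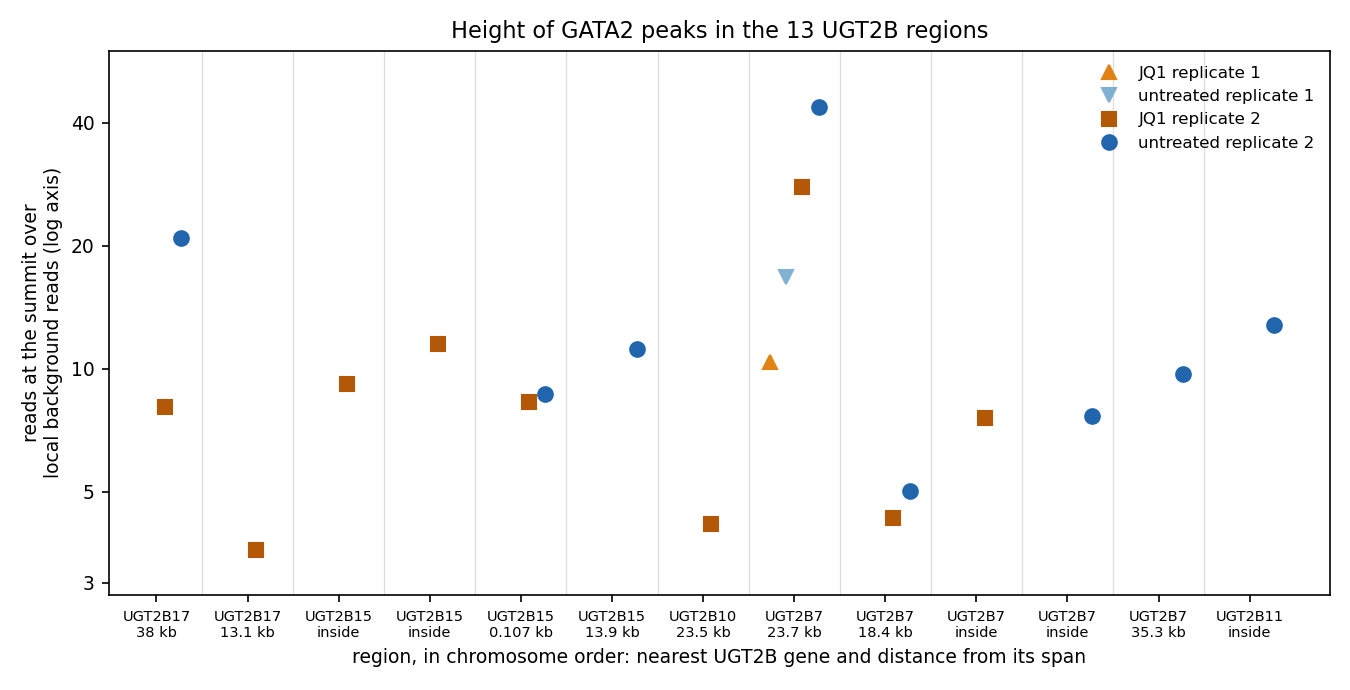
Reads at the summit over local background reads (log axis) in the 13 UGT2B regions, in chromosome order and named by the nearest gene and the distance from its span. Symbols show the 4 lists, JQ1 left of untreated within each replicate. The region 23.7 kb from UGT2B7 has a symbol in each list, from 10.4 to 43.6, and stands above every other region in replicate 2.

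A second region 18.4 kb from UGT2B7, inside UGT2B26P at 69032891 to 69033131, was in both replicate 2 lists. It had 24 reads over 5.57 and a −log10 q of 6.01 in JQ1 replicate 2, and 22 reads over 4.37 and a −log10 q of 4.12 in untreated replicate 2. Close to the UGT2B7 start and inside the UGT2B7 span, the replicate 2 lists had peaks at different places. That of JQ1 replicate 2 had its summit 1.47 kb upstream, with 35 reads over 4.62 and a −log10 q of 16.4, and that of untreated replicate 2 had it 792 bases upstream, with 17 reads over 2.21 and a −log10 q of 4.31. The intervals did not overlap. A peak 35.3 kb from the span, with 19 reads over 1.96 and a −log10 q of 6.78, was in untreated replicate 2 only.

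The other 3 genes code for enzymes of the liver or with less known substrates, and had few or no GATA2 peaks. UGT2B10 (NCBI gene 7365, 68815994 to 68832023), whose enzyme conjugates nicotine and cotinine, had a single peak 23.5 kb from its span in JQ1 replicate 2, with 17 reads over 4.07 and a −log10 q of 3.76. UGT2B11 (NCBI gene 10720, 69199951 to 69224984) had a single peak in untreated replicate 2, at 69214979 to 69215139. Its summit was inside the UGT2B11 span, 313 bases upstream of the RefSeq start, and the peak also overlapped the noncoding RNA gene LOC105377267. It had 25 reads over 1.96, a fold enrichment of 7.75 and a −log10 q of 11.0. The promoters of UGT2B10 and UGT2B11 were 90.1% identical over their aligned length, against 61.5% to 69.5% for the other pairs of the 4 promoters. How the authors placed reads that match several copies is not given in the sources used here, and the part of such reads in the peaks at these copies was not tested. UGT2B4 (NCBI gene 7363, 69480165 to 69526014), whose enzyme conjugates bile acids, had its nearest peak 71.6 kb away in JQ1 replicate 2 and 64.4 kb away in untreated replicate 2, and 119 and 182 kb away in JQ1 replicate 1 and untreated replicate 1.

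Apart from the leading UGT2B7 region, the UGT2B peaks of replicate 2 had no partner in replicate 1, and most stood in the weaker part of their lists. Their rank by q-value ran from the top 28.5% to the top 99.9% in JQ1 replicate 2 and from the top 24.5% to the top 90.2% in untreated replicate 2. Over the whole lists, partners in the replicate 1 list of the same treatment were found for 18.6% of the JQ1 peaks and 35.7% of the untreated peaks ranked between 20 and 30%. Among peaks ranked between 70 and 80% they were found for 2.98% of JQ1 and 5.25% of untreated peaks, and among the first 10% for 72.5% of JQ1 and 86.7% of untreated peaks.

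**Figure D4:**
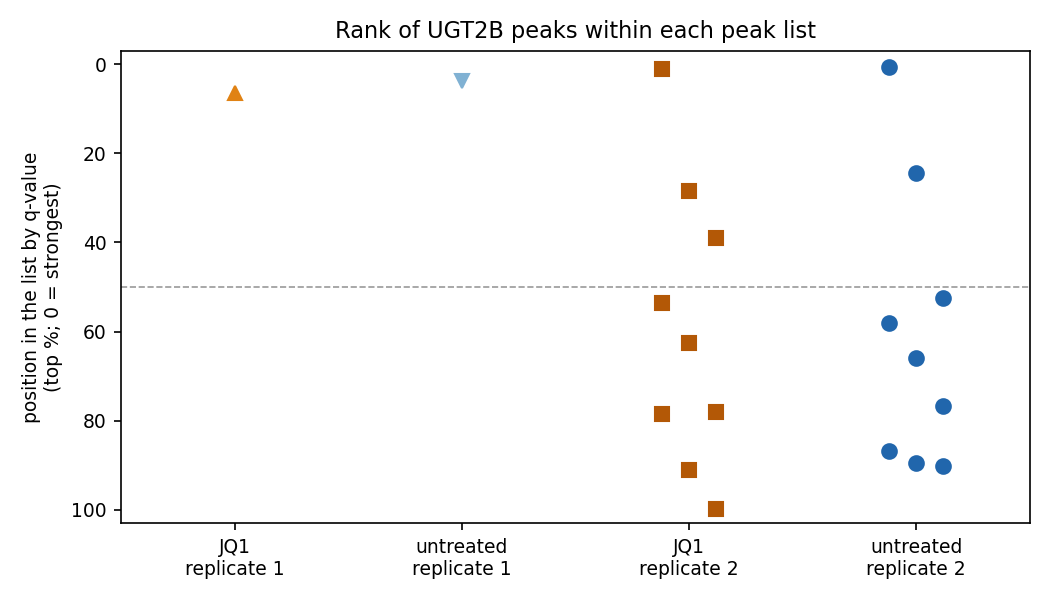
Rank of each UGT2B peak within its own list by q-value, with 0 for the strongest peak at the top, for the 4 lists. Each symbol is a peak, sideways shifts only separate symbols, and the dashed line marks the middle of a list. A single peak per list stands in the first 10%, from the top 0.544% to the top 6.39%, and the next ones begin at the top 24.5%.

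Other genes that conjugate steroids or take the conjugates apart were looked at in the same way, as a list of 36 genes of glucuronidation, sulfation, cofactor supply and export. A region in all 4 lists lay within 50 kb of 16 of them, against 1 of the 7 UGT2B genes and 13.6% of all protein-coding genes. The 36 genes shared 93 distinct regions. Of these, 14.0% were in all 4 lists, against 7.69% of the UGT2B regions and 8.96% of all regions in the series. In both replicate 2 lists were 57.0% of them, against 30.8% of the UGT2B regions and 58.6% of all regions. No test of these differences was made, since regions of 1 locus are not independent. The genes of the UGT1A locus on chromosome 2, which share their last exons, made up 8 of the 16. They shared a region at 233700215 to 233700591 with a −log10 q of 23.7 in JQ1 replicate 1, 18.8 in untreated replicate 1, 66.6 in JQ1 replicate 2 and 33.5 in untreated replicate 2. UGT1A1 had no peak within 50 kb.

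The sulfotransferase genes next to the UGT2B cluster had strong regions too. SULT1E1, the gene of estrogen sulfotransferase, had a region 2.66 kb from its span at 69818297 to 69818738, with a −log10 q of 16.1 in JQ1 replicate 1, 21.0 in untreated replicate 1, 60.1 in JQ1 replicate 2 and 97.1 in untreated replicate 2. SULT1B1, a thyroid hormone sulfotransferase gene, had a region 13.1 kb away at 69707865 to 69708173, with values of 9.48 and 24.8 in JQ1 and untreated replicate 1 and of 20.3 and 99.2 in JQ1 and untreated replicate 2. The rest of the 16 were UGT3A2, UGT8, the steroid sulfatase gene STS, PAPSS2, which makes the sulfate donor, and the exporter genes ABCC4 and ABCG2. At UGT8, which codes for a galactosyltransferase of myelin lipids, the −log10 q of the leading common region was 30.9 in JQ1 replicate 1, 29.9 in untreated replicate 1, 112 in JQ1 replicate 2 and 102 in untreated replicate 2. A region in 2 or 3 lists was the most that UGT2A1, UGT2A2, UGT2A3, UGT3A1, UGP2, SLC35D2, SULT1C2, SULT2B1, SUMF1 and PAPSS1 had. UGDH, SULT2A1, ABCC2 and ABCC3 had regions of a single list, and SLC35D1, GUSB, SULT1A1, SULT1A3 and SLC35B2 had no peak, like UGT1A1.

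Compared with the kallikrein genes, the UGT2B genes had fewer regions common to all lists. KLK2, KLK3 and KLK4 had 3 common regions among 7 distinct ones, against 1 of 13 at the UGT2B genes. The UGT2B share of 7.69% was near the 8.96% of all regions in the series, and the kallikrein share of 42.9% was above it. A common region 4.03 kb from KLK3 had a −log10 q of 41.4 in JQ1 replicate 1, 76.8 in untreated replicate 1, 167 in JQ1 replicate 2 and 204 in untreated replicate 2, each above the value of the leading UGT2B region in the same list. The comparison rests on 2 loci and carries no test.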

How the data were processed

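GATA2 ChIP-seq of VCaP cells was analysed from 4 peak lists, 1 per precipitate, so peaks had been called without pooling replicates. The build hg38 and the tools MACS2, Bowtie2 and Picard are named per the submitters' processing notes, and no version or setting is given in the sources used here. The deposited fold enrichment is a linear ratio at the summit. The deposited −log10 p-value and q-value and the whole-number score are those of the authors' peak caller, and the score was not used. Summit positions and interval ends are as deposited, written here counting from 1.

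Only the numbered chromosomes, X and Y were kept, which left out 10 lines of JQ1 replicate 1 and 8 of untreated replicate 2. An interval listed with 2 summits counts as 2 peaks. Peaks were selected by a summit within 50 kb of a RefSeq span (GRCh38.p14, the same build) and merged at an overlap of 1 bp. The deposited p-value was solved as a Poisson tail and the fold as pileup over background, each with a pseudocount of 1. Whole reads solved all peaks of both replicate 1 lists, and all but 1 of JQ1 replicate 2, to within 0.01 of the deposited −log10 p. In untreated replicate 2 the same held after multiplying whole reads by 0.686, so its read numbers were divided by that factor. No read totals were used. The list density was taken over 3087 Mb, the sum of the ends of the last gene on each chromosome.

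The merging, selection and solving steps were tested on simulated data. Peak numbers and densities were compared by exact permutation of the list labels, two-sided, with 6 possible splits. With 2 lists against 2 the smallest p is 0.333, so p under 0.05 cannot be reached. Alternatives were windows of 10 and 100 kb, a q-value of 1e-05 or less, lists of equal length, other overlap rules, a replicate block and leaving out each replicate. All 7 genes, all 13 regions, neighbouring coding genes nearest to a region and the list genes with a region in at least 2 lists were named, and the list genes without one were added by name only. The other luminal markers chosen for the check of the cell line are not reported here. Genes and lists were chosen with earlier results of these data known. Promoters were aligned with Biopython 1.88, and Python 3.11.15 with SciPy 1.17.1 was used elsewhere.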

Additional observations from a re-analysis of the deposited data

How the results depend on the processing

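Peak calls at this cluster depend on the long lists of replicate 2. The 13 regions became 1 with lists of equal length and 6 within 10 kb of a span, and ran from 1 to 13 when a replicate was left out. The 5 genes with a peak became 1 with lists of equal length and 3 within 10 kb, and ran from 1 to 5 when a replicate was left out. Without replicate 2 the single region and gene left were the leading UGT2B7 region and UGT2B7. Regions in both lists of a group were 1 for JQ1 and 1 for untreated, 0 for both within 10 kb and 2 for both within 100 kb. The log2 density difference of 0.11 turned to −0.082 within 100 kb (exact permutation p = 0.667), and alternatives with a test gave p from 0.333 to 1. It could not be computed within 10 kb, where both replicate 1 lists had no peak. The cause of these changes was not tested. The mean difference in peak number was 0 and stayed between 0 and 0.5 in the alternatives run. With a replicate block it was 0 (exact sign-flip p = 1). That p was fixed in advance, since the JQ1 and untreated lists of each replicate had equal peak numbers. The labels do not say whether same-numbered lists belong together. Deviations of same-numbered lists over 36122 regions had a Pearson r of 0.801, with 2 pairs. Regions without a peak entered as 0 and both replicate 1 lists were short, so this r cannot decide whether lists were paired. A region without a peak in replicate 1 counts as not detected there, not as absent, and the part of sequencing depth in the short lists was not tested.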

Other observations

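Between and beside the 50 kb windows, the UGT2B cluster held further GATA2 regions that are not among its 13 regions. A region between UGT2B15 and UGT2B10 at 68732764 to 68733635, 62.2 kb from UGT2B15 and outside any RefSeq gene, was in 3 lists, all but JQ1 replicate 1. Its strongest peak had a −log10 q of 22.4 in JQ1 replicate 2, against 27.2 in untreated replicate 2 and 6.28 in untreated replicate 1. It held 3 peaks in each replicate 2 list and 2 in untreated replicate 1. A region at 69408419 to 69408663, 71.6 kb from UGT2B4, had a −log10 q of 11.3 in JQ1 replicate 2 and 30.6 in untreated replicate 2.

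The UGT2A genes, whose enzymes are close relatives of the UGT2B enzymes, had 3 regions inside their spans. Inside UGT2A3, which stands between UGT2B10 and UGT2B7, a region at 68946631 to 68946877 had 46 reads and a −log10 q of 25.7 in JQ1 replicate 2, and 26 reads and 8.32 in untreated replicate 2. Inside UGT2A1, a region at 69644589 to 69645266 had a −log10 q of 3.65 in JQ1 replicate 1 and no peak in untreated replicate 1, and 14.2 in JQ1 replicate 2 against 4.91 in untreated replicate 2. The third, at 69590264 to 69590487 inside both UGT2A1 and UGT2A2, had a peak in untreated replicate 2 only, with a −log10 q of 5.59. At the other end, a region inside TMPRSS11E at 68456074 to 68456481, 80.8 kb from UGT2B17, was called in each JQ1 list and in no untreated list, with a −log10 q of 4.46 in JQ1 replicate 1 and 12.6 in JQ1 replicate 2. Of all regions in the series, 0.377% had this pattern. These places were picked after their values were seen, and no test was run.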
